A study of Mus musculus with 6 samples.

Results

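Basophils and mast cells are granulocytes of allergic and antiparasite responses that carry the high-affinity receptor for immunoglobulin E (FceRI) and store histamine and proteases in granules. Read counts of 10 genes of these cells, out of 24421 in the deposited table, are described here in hematopoietic progenitors of mice given ruxolitinib and of untreated mice. The genes were taken by symbol from the table and were selected on earlier results of this same contrast, the fold changes and calls between RUX and untreated pools, in which Prss34 had been called when no low-count filter was applied. Their differences between the groups are therefore given as a description, with no test of their own. All 10 were in the table, and 8 of them passed the filter on low counts.

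The cells were Lin-CD117+ bone marrow cells of female CByB6F1 mice, a hybrid of BALB/c and B6 parents, aged 2 to 5 months. Lin- means without antigens of mature lineages, and CD117 is the receptor KIT, so the sorted fraction holds stem and progenitor cells. Of the 6 libraries, pools 1 to 3 were of untreated mice and pools 4 to 6 of mice treated with ruxolitinib (RUX), which inhibits the kinases JAK1 and JAK2; each pooled cells of 2 to 3 mice of a group to obtain enough RNA. The sources used here do not give the dose, its duration or the time of harvest. Libraries held 27354768 to 48747137 counted read pairs, and the untreated ones were the shallower. The study asked what ruxolitinib does to these cells in normal mice.

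Basophils and mast cells arise in bone marrow from KIT-positive granulocyte progenitors. Interleukin-3, whose receptor signals through JAK2 and STAT5, expands basophils, and KIT ligand sustains mast cells. GATA2 with STAT5 and GATA1 drives genes of both lineages, while C/EBP alpha favors the basophil side. Mature mast cells keep KIT and complete their differentiation in tissues, whereas mature basophils lose it, so a CD117+ gate is not built to hold mature basophils. In bulk RNA of this kind, fewer cells of a type and less RNA per cell cannot be told apart.

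Prss34 and Mcpt8 had the widest spread within groups on the log2(CPM + 1) scale. Cpa3 and Ms4a2 kept closest to each other of the 8 genes that passed the low-count filter. The promoters of these 4 genes are printed because of those contrasting values over the pools. Each runs 5′ to 3′ on the strand of its gene, from 250 bases before to 50 bases after the RefSeq start in build GRCm38.p6, in lower case. Capitals mark motifs of GATA factors on either strand, which are the letters AGATAA, the letters AGATAG, the letters TGATAA and the letters TGATAG. Prss34 lies at chr17:25298144-25298443 on the plus strand, and Mcpt8 at chr14:56085148-56085447, Cpa3 at chr3:20242132-20242431 and Ms4a2 at chr19:11623670-11623969 on the minus strand.
Prss34: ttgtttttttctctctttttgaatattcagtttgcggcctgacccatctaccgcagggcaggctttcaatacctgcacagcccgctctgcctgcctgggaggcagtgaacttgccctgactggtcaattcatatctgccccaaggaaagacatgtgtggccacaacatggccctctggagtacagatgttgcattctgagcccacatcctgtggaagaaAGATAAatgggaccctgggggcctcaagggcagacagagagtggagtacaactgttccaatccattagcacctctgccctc
Mcpt8: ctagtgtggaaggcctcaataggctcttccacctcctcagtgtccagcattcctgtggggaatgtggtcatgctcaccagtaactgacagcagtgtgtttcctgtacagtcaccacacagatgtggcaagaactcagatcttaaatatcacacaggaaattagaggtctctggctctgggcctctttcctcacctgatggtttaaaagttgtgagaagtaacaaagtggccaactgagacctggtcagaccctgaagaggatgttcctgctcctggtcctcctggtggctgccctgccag
Cpa3: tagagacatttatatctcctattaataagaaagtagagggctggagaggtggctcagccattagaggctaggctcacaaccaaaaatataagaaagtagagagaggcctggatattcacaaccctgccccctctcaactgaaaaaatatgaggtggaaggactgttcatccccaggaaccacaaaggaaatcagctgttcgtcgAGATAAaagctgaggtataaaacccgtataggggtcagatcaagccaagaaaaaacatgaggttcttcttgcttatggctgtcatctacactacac
Ms4a2: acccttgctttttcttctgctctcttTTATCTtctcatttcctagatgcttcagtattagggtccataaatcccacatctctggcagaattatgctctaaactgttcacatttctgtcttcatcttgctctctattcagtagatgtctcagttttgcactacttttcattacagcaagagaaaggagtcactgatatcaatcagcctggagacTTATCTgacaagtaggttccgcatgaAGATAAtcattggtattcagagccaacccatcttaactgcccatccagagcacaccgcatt
Of the 10 genes, 8 had a promoter in the RefSeq table, with 9 windows because Srgn has a pair of starts. A GATA motif was found for 6 of these 8 genes, namely Prss34, Cpa3, Ms4a2, Fcer1a, Hdc and Cma1, and in 29.8% of all 32851 promoter windows of the same length. Ms4a2 held 3 such matches and each of the other 5 held 1. Mcpt8 and Srgn held none. The letters TTCNNNGAA, a motif of STAT factors, were found for 0 of the 8 genes and in 8.30% of all windows, and CANNTG (E-box) for 7 of the 8 and in 72.3% of all windows; both strands were searched, and no match overlapped a GATA match. These are matches of letters in short windows and say nothing of whether a factor binds there.

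Of the 10 genes, the basophil proteases Prss34 and Mcpt8 had the widest spread within groups on the log2(CPM + 1) scale, and Prss34 had the highest fold between groups. Prss34 encodes a basophil serine protease (mast cell protease 11) and lies at chr17:25298394-25300161 in mm10. It measured 1.25, 3.89 and 15.8 CPM (read pairs scaled to 1000000 per normalized library) in untreated pools 1, 2 and 3, then 19.6, 16.3 and 11.8 CPM in RUX pools 4, 5 and 6, from 35, 152 and 577 and from 847, 795 and 597 read pairs. Untreated pools 1 and 2 were the low ones, and untreated pool 3 lay among the RUX pools, so the groups overlapped. The spread within the untreated group was 12.7-fold, against 1.66-fold within the RUX group. The log2 fold change, RUX minus untreated, was 1.18 ± 0.57 (SE), a fold of 2.26 with a 95% interval of 0.965 to 5.29. It was 0.69 without untreated pool 1, 0.89 without untreated pool 2 and 2.60 without untreated pool 3.

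Mcpt8, the gene of mast cell protease 8, is in mice a marker of basophils despite its name and lies at chr14:56082164-56085197. It measured 19.4, 14.8 and 51.1 CPM in untreated pools 1, 2 and 3, then 47.9, 30.0 and 22.7 CPM in RUX pools 4, 5 and 6. Untreated pool 3 and RUX pool 4 were high, and the range of the RUX pools lay inside that of the untreated pools. The log2 fold change was 0.24 ± 0.38 (SE), and it was −0.10 without RUX pool 4 and 0.97 without untreated pool 3. Prss34 and Mcpt8 are used as markers of the same cell, but their ratio was not constant: per base of exon, Prss34 stood at 0.0444, 0.182 and 0.214 of the level of Mcpt8 in untreated pools 1, 2 and 3, then at 0.282, 0.374 and 0.360 in RUX pools 4, 5 and 6. This ratio, chosen after the values of both genes had been seen, was higher in every RUX pool than in every untreated pool. Of 6 ratios between the genes that were computed, 2 showed such a separation, and both had Prss34 as numerator. The other was Prss34 over Srgn. With a shared numerator, the 2 are not separate observations. The share of ratios over all genes that separate in this way was not computed. For single genes, the RUX pools lay entirely above the untreated pools in 2.99% of tested genes. Prss34 over Cpa3 overlapped between the groups, at 0.178 in untreated pool 3 and 0.159, 0.143 and 0.162 in RUX pools 4, 5 and 6.

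**Figure D1:**
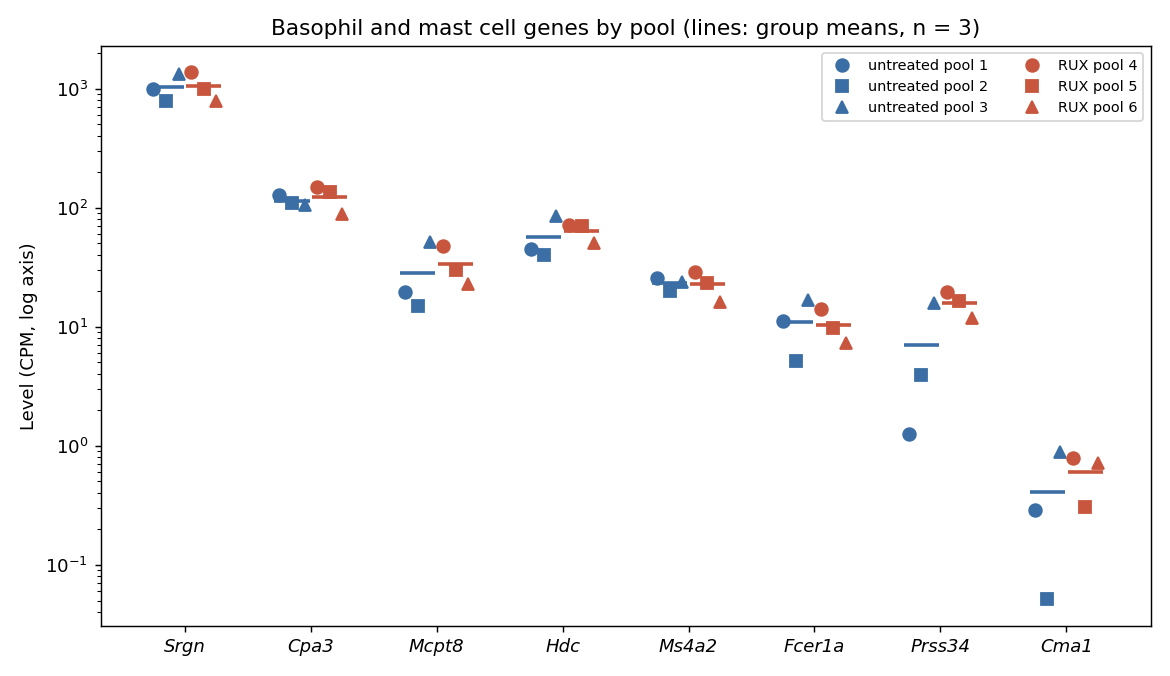
Level of the 8 genes that passed the low-count filter, in CPM on a log axis, with a point per pool (blue untreated, red RUX) and lines at group means of 3 pools. Prss34 runs from 1.25 to 19.6 CPM with untreated pools 1 and 2 at the bottom, while Cpa3 stays between 87.6 and 148 CPM.

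The chymase gene Cma1 and the tryptase genes of mast cells were scarce or not detected. Cma1, the gene of mast cell chymase (mast cell protease 5), measured 0.286, 0.0512 and 0.879 CPM in untreated pools, then 0.788, 0.308 and 0.714 CPM in RUX pools 4, 5 and 6, from 2 to 36 read pairs. Its log2 fold change of 0.56 ± 0.73 (SE) rests on those few counts, and it was 0.04 without untreated pool 2 and 1.91 without untreated pool 3. Tpsab1 and Tpsb2 encode the tryptases of mast cells and lie near Prss34 in the same cluster, at chr17:25343245-25345562 and chr17:25366333-25368092. Tpsb2 had 1 read pair in RUX pool 4 and 0 elsewhere, and Tpsab1 had 0 in every pool, where 3 counts, the limit that a count of 0 allows, correspond to 0.0595 to 0.107 CPM per pool. Prss34 ends 43083 bases before Tpsab1 and was counted in all pools, so genes of the cluster differed in whether they were detected at all. None of the 50-base stretches of the longest GENCODE M21 transcript of Tpsab1 (0 of 1879) or Tpsb2 (0 of 1240) occurs in a transcript of another gene, and 0 exon bases of any of the 10 genes are shared with another gene of the deposited annotation.

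Several other genes of mature mast cells were also at or near 0. Of the other protease genes listed for these cells, Mcpt4, Mcpt9 and Tpsg1 stood at 0 in all pools, as did the mast cell receptor genes Mrgprb1 and Mrgprb2. Ctsg, Ctsc, Ndst2 and Dpp4 of the protease list passed the low-count filter, with Ctsg at 287 to 952 CPM over the pools. Cpa3, another mast cell granule gene, was abundant but is also expressed by progenitors and basophils. The basophil surface gene Cd200r3 was near the floor, with 2 to 13 read pairs per pool.

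Cpa3 encodes carboxypeptidase A3 and lies at chr3:20215616-20242181. It measured 128, 109 and 106 CPM in untreated pools 1, 2 and 3, then 148, 136 and 87.6 CPM in RUX pools 4, 5 and 6. RUX pool 4 was the highest and RUX pool 6 the lowest, so the RUX pools enclosed the untreated ones. The log2 fold change was 0.12 ± 0.19 (SE), a fold of 1.08 with a 95% interval of 0.822 to 1.43; without RUX pool 4 it was −0.03. Cpa3 was the gene of the 8 with the smallest spread within groups.

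Srgn encodes serglycin, the proteoglycan core on which granule proteases and histamine are stored, and is expressed by most blood-forming cells (chr10:62494428-62507755). It measured 985, 783 and 1320 CPM in untreated pools, then 1370, 998 and 784 CPM in RUX pools 4, 5 and 6. Both groups spanned nearly the same range, and the log2 fold change was 0.03 ± 0.22 (SE). Srgn made up 77.7 to 81.5% of the read pairs of the 10 genes, so their summed level, 976 to 1619 CPM in untreated and 981 to 1700 CPM with RUX, mostly follows Srgn.

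The FceRI chain genes Fcer1a and Ms4a2 showed no separation of the groups either. Fcer1a, the alpha chain of FceRI that binds immunoglobulin E (chr1:173221271-173227229), measured 11.2, 5.12 and 16.6 CPM in untreated and 14.1, 9.72 and 7.24 CPM with RUX. Ms4a2, the beta chain that amplifies its signal (chr19:11615521-11623719), measured 25.8, 19.8 and 23.8 CPM in untreated and 28.9, 23.4 and 16.1 CPM with RUX. Fcer1a was highest in untreated pool 3 and lowest in untreated pool 2, whereas Ms4a2 was highest in RUX pool 4 and lowest in RUX pool 6. Log2 fold changes were −0.09 ± 0.35 (SE) for Fcer1a and −0.02 ± 0.21 (SE) for Ms4a2. Per base of exon the alpha chain stood at 1.19, 0.708 and 1.92 of the beta chain in untreated pools 1, 2 and 3, then at 1.34, 1.14 and 1.24 in RUX pools 4, 5 and 6. The gamma chain gene Fcer1g, shared with other Fc receptors of myeloid cells, averaged 179 CPM per kilobase, against 10.4 for Fcer1a and 8.16 for Ms4a2.

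Hdc encodes histidine decarboxylase, the enzyme that makes histamine, and is also used by other myeloid progenitors (chr2:126593660-126618678). It measured 44.6, 39.6 and 84.8 CPM in untreated and 71.2, 70.1 and 50.9 CPM with RUX. Untreated pools 1 and 2 were the lowest pools and untreated pool 3 the highest. The log2 fold change was 0.19 ± 0.25 (SE), and it was 0.61 without untreated pool 3. The vesicular amine transporter gene Slc18a2, which loads histamine and serotonin into granules, measured 50.6 ± 18.2 CPM in untreated and 44.8 ± 5.91 CPM with RUX (means ± SD over n = 3 pools, here and in later pairs of values). Tph1, which starts serotonin synthesis, had at most 3 read pairs in any pool.

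Levels per exon length put the genes in an order that held only in part. Means over the 6 pools, in CPM per kilobase ± SD, were 1109 ± 271 for Srgn, 81.9 ± 15.2 for Cpa3, 37.0 ± 18.2 for Mcpt8, 25.1 ± 7.41 for Hdc, 10.4 ± 4.16 for Fcer1a, 9.42 ± 6.05 for Prss34, 8.16 ± 1.60 for Ms4a2 and 0.469 ± 0.310 for Cma1. Srgn above Cpa3, Hdc above Fcer1a and Ms4a2 above Cma1 were separated in range over the pools. Cpa3 was above Mcpt8 and Mcpt8 above Hdc within each of the 6 pools, although their ranges overlapped. Fcer1a, Prss34 and Ms4a2 could not be ranked, since Fcer1a exceeded Prss34 in 3 of 6 pools and Prss34 exceeded Ms4a2 in 4 of 6. Srgn ranked at percentile 99.6 of the 13411 tested genes by this measure, Cpa3 at 90.4, Prss34 at 54.2 and Cma1 at 13.5.

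The comparison of RUX with untreated pools called none of these genes. Of the 8 that passed the filter, 0 were called by edgeR's quasi-likelihood test at a Benjamini-Hochberg adjusted p under 0.05, where 0% of the 13411 tested genes were called, and 0 had an unadjusted p under 0.05, against 254 of all tested genes. DESeq2 and limma-voom also called 0 of all genes, with 281 and 262 at an unadjusted p under 0.05. Prss34 was among the latter, with a limma-voom log2 fold change of 1.77 and an unadjusted p of 0.0063. By DESeq2 its unadjusted p was 0.21. Limma-voom weighted by library quality gave Prss34 a log2 fold change of 2.26, an unadjusted p of 1.9e-04 and an adjusted p of 0.44. Log2 fold changes were positive for 6 and negative for 2 of the 8, with a median of 0.15. Over all tested genes they were positive for 6600 and negative for 6811, with a median of −0.004. For 0 of the 8 did the RUX pools lie entirely above or entirely below the untreated pools, as they did for 2.99% and 3.25% of tested genes. Without the low-count filter, 0.073% of 19186 genes were called by edgeR, and Prss34 was among them with a log2 fold change of 1.19 ± 0.22 (SE). With the filter its SE was 0.57, and it was 0.91 in the robust fit and 0.96 by DESeq2. The SE of Mcpt8 was also smaller without the filter, at 0.18 against 0.38. The call of Prss34 was known when the genes were chosen, so it is a description and not a test of them. Prss34 was called in none of the other 14 alternatives, which used edgeR, DESeq2 or limma-voom.

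**Figure D2:**
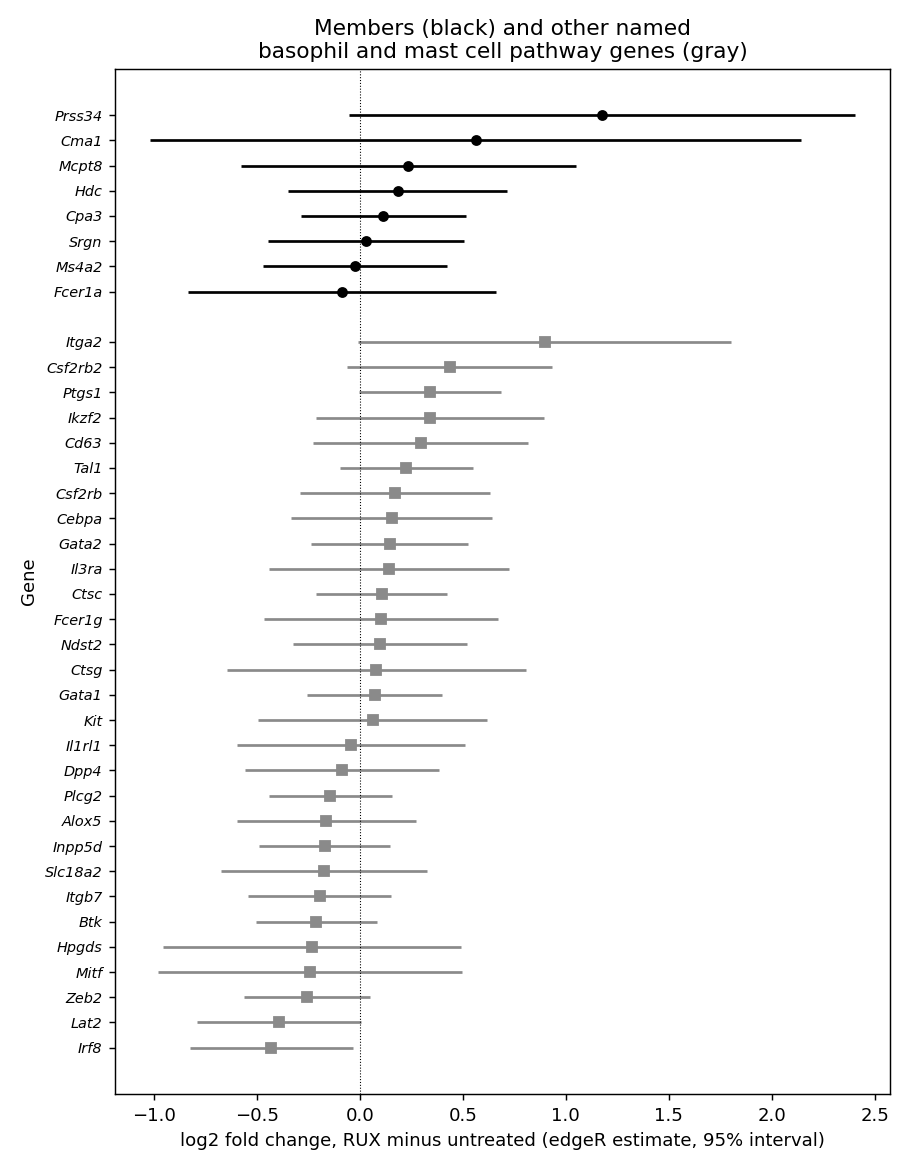
Log2 fold change, RUX minus untreated, with 95% intervals from edgeR for the 8 tested genes (black) and for other named genes of basophil and mast cell biology (gray), 3 pools a group. Prss34 has the highest estimate, at 1.18, and Irf8 the lowest, at −0.43.

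Pools of both groups shared the highest values. The highest pool was untreated pool 3 or RUX pool 4 for 8 of the 8 tested genes, and for 39.3% of all tested genes. These pools were the top pair for 5 of the 8, namely Mcpt8, Fcer1a, Hdc, Cma1 and Srgn, and for 15.3% of all tested genes. Untreated pool 2 was the lowest for 5 of the 8, RUX pool 6 for Cpa3 and Ms4a2, and untreated pool 1 for Prss34. The mean deviation of the 8 genes from their own means, in log2(CPM + 1), was −0.35, −0.55 and 0.44 in untreated pools 1, 2 and 3, then 0.50, 0.15 and −0.19 in RUX pools 4, 5 and 6. Spread within groups on that scale ranked at percentile 99.9 of tested genes for Prss34, 99.7 for Mcpt8, 99.4 for Fcer1a and 96.8 for Hdc, 93.8 for Srgn and 89.6 for Cma1, and at 85.5 for Ms4a2 and 82.4 for Cpa3.

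**Figure D3:**
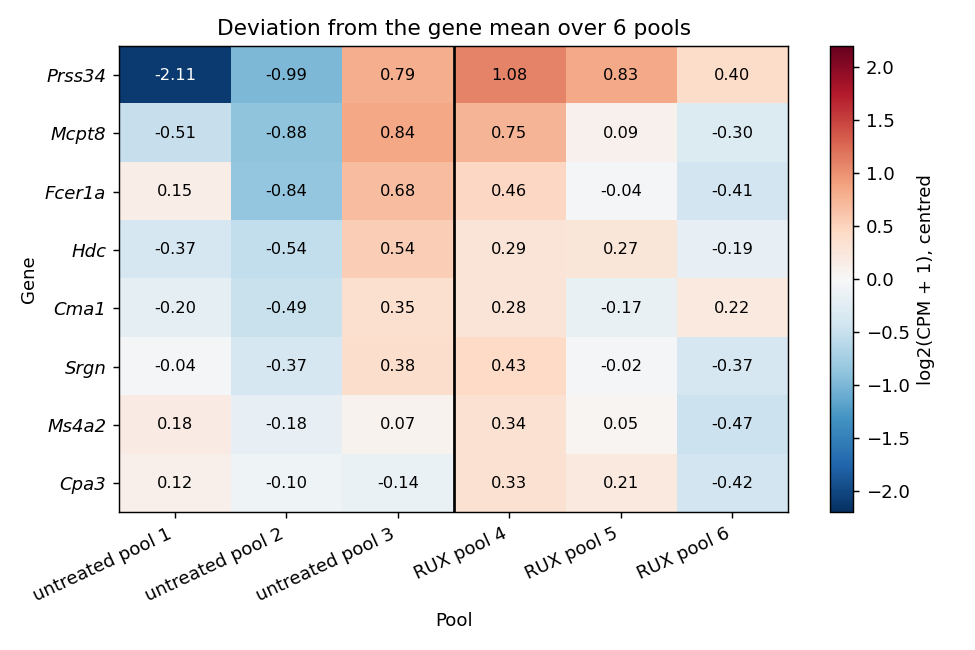
Deviation of each tested gene from its mean over the 6 pools, in log2(CPM + 1), with untreated pools left and RUX pools right of the line. Prss34 is at −2.11 and −0.99 in untreated pools 1 and 2, and Cpa3 and Ms4a2 stay between −0.47 and 0.34 in every pool.

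Markers of other cells also differed between pools, and the sum of eosinophil markers was highest in untreated pool 3 and RUX pool 4. This sum, over the 9 found in the table, was 237 and 228 CPM in those pools and 40.2 to 91.7 CPM elsewhere. Prg2 alone measured 214 CPM in untreated pool 3 and 207 CPM in RUX pool 4, so the sum mostly follows Prg2. Ear2 was highest in untreated pool 2 and Alox15 in RUX pool 5, each with at most 17 read pairs per pool. The sum of 10 neutrophil markers was 170, 2254 and 2459 CPM in untreated pools 1, 2 and 3 and 1545, 927 and 363 CPM in RUX pools 4, 5 and 6, so untreated pools 2 and 3 were highest and untreated pool 1, where Prss34 was lowest as well, was lowest. Monocyte and dendritic markers summed to 848 to 1558 CPM in untreated and 678 to 1035 CPM with RUX, with untreated pool 3 highest and RUX pool 4 below untreated pool 1 (1082 CPM). No marker of these 3 lists was at 0 in all pools. Stem cell markers summed to 540 to 784 CPM without and 655 to 739 CPM with RUX, erythroid markers to 6239 to 7236 and 5753 to 8646 CPM, and lymphoid markers to 1171 to 1207 and 940.4 to 1228 CPM. Megakaryocyte markers were at 170 to 185 CPM without and 200 to 221 CPM with RUX. The 7 lineage antigen genes found of the 8 listed summed to 138 to 225 and 139 to 168 CPM. Ptprc made up most of that sum, at 96.1 to 187 CPM in untreated and 106 to 123 CPM with RUX. Kit, the gene of the sort antigen, stood at 409 to 471 CPM in 4 pools and was lowest in untreated pool 3 (196 CPM) and RUX pool 4 (295 CPM). The part of these markers in the values of the basophil and mast cell genes was not tested. Without untreated pool 3 and RUX pool 4, log2 fold changes were 2.42 for Prss34, 1.69 for Cma1, 0.63 for Mcpt8 and 0.53 for Hdc. They were 0.07 for Fcer1a, 0.01 for Srgn, −0.08 for Cpa3 and −0.20 for Ms4a2, and 0 genes of the table were called. These pools stand out in the values of these same genes, so leaving them out is no independent check. Untreated pool 3 held the highest untreated value of Prss34 (15.8 CPM), and leaving it out raises that fold change by construction.

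**Figure D4:**
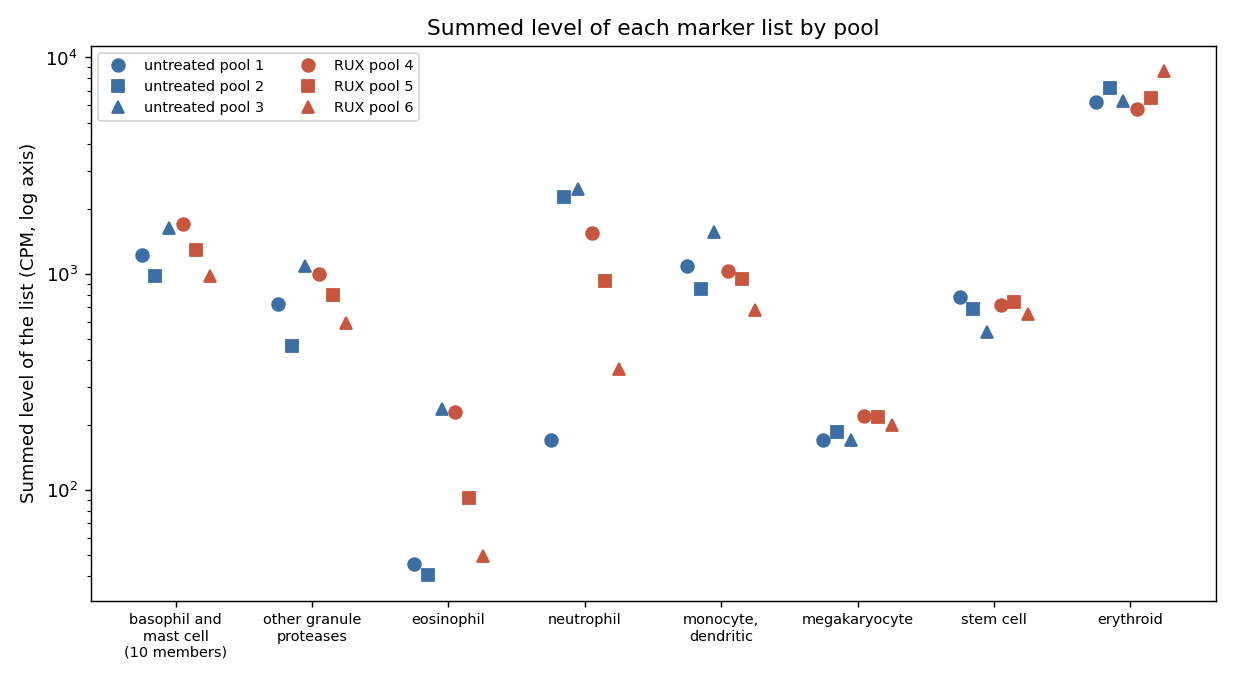
Summed level of the 10 genes and of marker lists of other cells, in CPM on a log axis, with a point per pool (blue untreated, red RUX). Untreated pool 3 and RUX pool 4 are highest for the 10 genes and for eosinophil markers, at 237 and 228 CPM for the latter. The eosinophil sum is mostly Prg2.

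The genes closest in pool pattern to Mcpt8 were not those closest to Cpa3. Likeness was the root-mean-square distance of centered log2(CPM + 1) over the 6 pools, ranked among 9905 other tested genes with a mean of at least 5 CPM, and it is a description of 6 libraries. Mcpt8 was nearest to Prtn3 (distance 0.0740), Ly6c2 (0.0781) and Cebpe (0.134), which encode proteinase 3 of primary granules, a surface antigen of myeloid progenitors and monocytes, and a transcription factor of granulocytes. Prtn3 measured 388, 294 and 890 CPM in untreated pools 1, 2 and 3, then 948, 624 and 432 CPM in RUX pools 4, 5 and 6. Cpa3 was nearest to Lysmd2 (0.0653), Gpr65 (0.0781), a proton-sensing receptor gene, and Pros1 (0.0949), the protein S gene. Among the 8 tested genes the closest pair was Cpa3 and Ms4a2, at a distance of 0.119. These genes also had the smallest spread within groups, which keeps distances small by this measure.

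Prss34 had no near neighbor by the same measure. The values were centered but not scaled, so a gene with a wide spread, as Prss34 has, gets larger distances. Its 3 nearest genes were the inducible heat shock genes Hspa1b (0.553) and Hspa1a (0.605) and the ficolin gene Fcnb (0.592) of myeloid cells. Hspa1b measured 20.8, 59.2 and 89.9 CPM in untreated pools 1, 2 and 3, then 79.6, 98.2 and 74.4 CPM in RUX pools 4, 5 and 6. Untreated pool 1 was the lowest pool and untreated pool 2 the next lowest for Prss34 and for each of the 3.

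**Figure D5:**
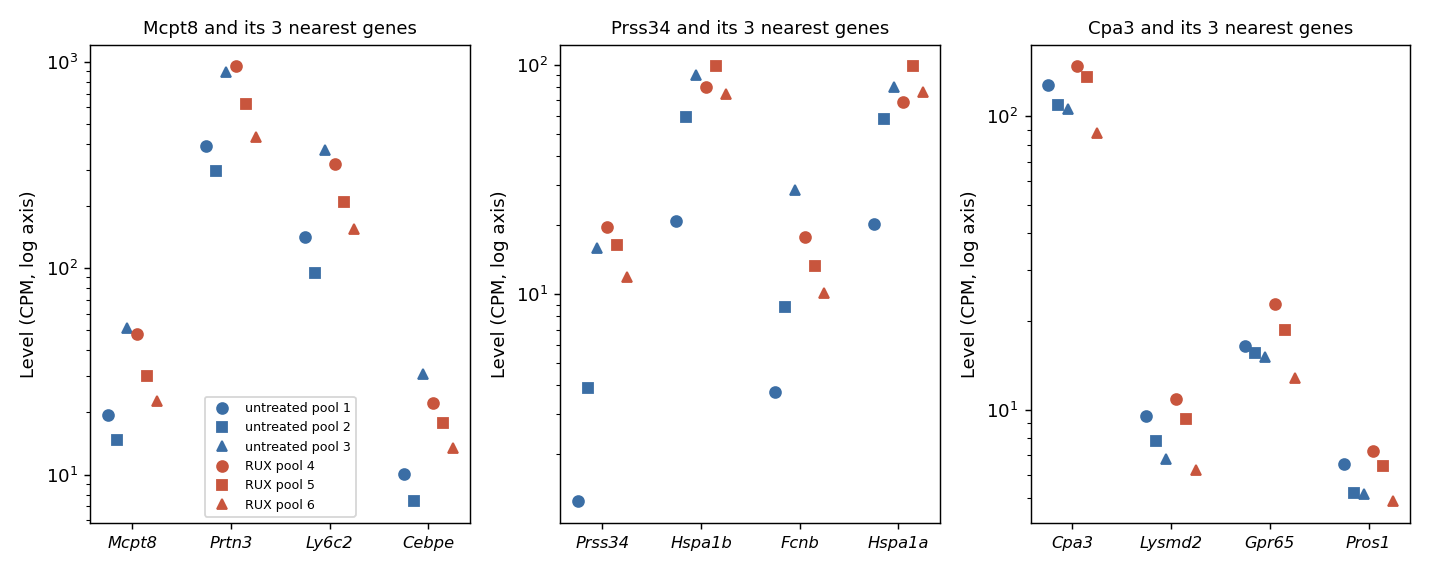
Levels by pool of Mcpt8, Prss34 and Cpa3, each with its 3 nearest genes, in CPM on a log axis, with a point per pool (blue untreated, red RUX). Mcpt8, Prtn3, Ly6c2 and Cebpe share the order of most pools, whereas the genes beside Prss34 share with it the low values of untreated pools 1 and 2.

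Of the other genes of basophil and mast cell biology, listed by role, none was called. The lists held 64 genes, of which 50 were tested, 0 were called by edgeR in either direction and 1 (Irf8) had an unadjusted p under 0.05; 24 had positive and 26 negative log2 fold changes (median −0.03). All adjusted p-values of the genes named from these lists were 1.00 by edgeR's quasi-likelihood test. The granule protease gene Ctsg (cathepsin G), which basophil, mast cell and neutrophil progenitors share, was high in untreated pool 3 (952 CPM) and RUX pool 4 (836 CPM) and measured 590 ± 336 CPM in untreated and 624 ± 207 CPM with RUX. Ctsc, the peptidase gene that activates granule proteases, measured 66.7 ± 5.31 and 71.8 ± 8.46 CPM. Ndst2, which sulfates heparin, and the membrane peptidase gene Dpp4 had log2 fold changes of 0.10 and −0.08.

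Genes of FceRI signaling had mostly small negative differences, none of them called. Of 12 tested, 11 had negative log2 fold changes (median −0.09), where 6811 of all 13411 tested genes had. For 1 of the 12, Btk, the RUX pools lay entirely below the untreated pools, as for 3.25% of all tested genes. The adaptor gene Lat2 measured 118, 79.1 and 109 CPM in untreated and 87.8, 85.0 and 60.7 CPM with RUX, with a fitted log2 fold change at −0.39 ± 0.18 (SE). The kinase gene Btk measured 122 ± 11.4 and 105 ± 2.61 CPM, with a fitted log2 fold change at −0.21 ± 0.14 (SE). Inpp5d, which encodes the inhibitory phosphatase SHIP1, and the phospholipase gene Plcg2 had values of −0.17 and −0.14, and Fcer1g was the single positive one, at 0.10.

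None of the receptor genes of these lineages was called. Of 11 tested, 8 had positive log2 fold changes (median 0.14), where 6600 of all 13411 tested genes had. As for 2.99% of all tested genes, the RUX pools lay entirely above the untreated pools for 2 of the 11. These were Itga2, encoding the integrin CD49b of basophils, at 0.787 ± 0.196 CPM in untreated and 1.46 ± 0.549 CPM with RUX, and Csf2rb2, a beta chain of the interleukin-3 receptor in mice, at 3.75 ± 0.262 and 5.07 ± 0.629 CPM. Their log2 fold changes were 0.90 ± 0.42 (SE) and 0.44 ± 0.23 (SE). The alpha chain gene Il3ra (10.6 ± 2.52 and 11.7 ± 4.20 CPM), the common beta chain gene Csf2rb (24.3 ± 7.57 and 27.3 ± 4.16 CPM) and Il1rl1, the interleukin-33 receptor (39.5 ± 14.5 and 38.3 ± 9.90 CPM), overlapped between the groups. Cd63, a granule membrane gene, and Itgb7, an integrin gene of mast cell progenitors, had log2 fold changes of 0.30 and −0.19, and Kit one of 0.06 ± 0.26 (SE).

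Regulators of the lineages were evenly divided. Of 12 tested, 6 had positive and 6 negative log2 fold changes (median −0.01). Gata2 measured 121 ± 24.0 CPM in untreated and 134 ± 22.4 CPM with RUX, Gata1 170 ± 13.1 and 179 ± 28.5 CPM, and Cebpa 29.7 ± 10.2 and 33.1 ± 5.66 CPM. Mitf, the mast cell regulator, was low at 3.48 ± 0.670 and 2.96 ± 1.36 CPM. Irf8, a monocyte and dendritic regulator that also acts in basophil and mast cell progenitors, measured 281 ± 63.1 and 209 ± 32.2 CPM, with a fitted log2 fold change at −0.43 ± 0.18 (SE). Zeb2, Tal1 and Ikzf2 had values of −0.26, 0.23 and 0.34, and Zeb2 was 1 of the 12 whose RUX pools lay entirely below the untreated ones, as for 3.25% of all tested genes; 0 of the 12 lay entirely above.

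Genes of lipid mediators and of cytokines each spanned a range of levels. Ptgs1, the cyclooxygenase-1 gene, measured 19.2, 18.8 and 23.1 CPM in untreated and 27.6, 23.7 and 26.3 CPM with RUX, with a fitted log2 fold change at 0.34 ± 0.16 (SE). It was 1 of 11 tested genes of this list with all RUX pools above the untreated ones, against 2.99% of all tested genes. Alox5, which starts leukotriene synthesis, measured 9.34 ± 1.65 and 8.36 ± 0.735 CPM, and the prostaglandin D synthase gene Hpgds 1.66 ± 0.209 and 1.41 ± 0.196 CPM. Ptgs2, the cyclooxygenase-2 gene, had 9 to 36 read pairs per pool. Among the cytokine genes, Osm, encoding oncostatin M, had 185 to 373 read pairs per pool (6.92 ± 0.285 CPM in untreated and 6.68 ± 2.07 CPM with RUX). Il4, a cytokine gene of basophils, had 7 to 35 read pairs per pool, and Il13 had 1 in RUX pool 4 and 0 elsewhere. Of the 11 tested genes of this list, 6 had positive and 5 negative log2 fold changes (median 0.01).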

How the data were processed

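RNA of sorted cells was made into libraries with the SMART-Seq mRNA LP kit, per the labels' protocols, and aligned with STAR to mm10, per the submitters' processing notes. The authors deposited unnormalized counts, made by featureCounts 2.0.3 from read pairs over exons, with a UCSC mm10 annotation and no strand option, per the file headers; exon lengths are deposited beside them. The genes and lists were chosen with earlier results of these data known.

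Columns were matched to pools by library name. edgeR 4.0.16 in R 4.3.3 kept 13411 genes (filterByExpr defaults), scaled libraries by TMM and fitted treatment alone by the two-sided quasi-likelihood test, adjusted by Benjamini-Hochberg over all tested genes, at 0.05. Log2 fold changes are fitted; SE comes from the fold change and F value. Pools hold different mice, so the test sets the difference between groups against variation between pools, which is moderated over all tested genes. The procedure was tested on simulated data, in which spread between pools followed only the trend over all genes. Genes as variable between pools as Prss34 were not represented, so that test does not cover them. Counts carry no stated molecular identifiers, so floors cover counting error only.

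Named genes were the 10 members, up to 4 genes of each other pathway list by unadjusted p with at least 1 CPM in the higher group, 10 genes fixed by role, and the 3 nearest genes of Prss34, Mcpt8 and Cpa3. Other cell markers are given as sums. Alternatives were DESeq2 size factors, upper-quartile scaling, no filter, 1 CPM in 3 pools, limma-voom 3.58.1 (plain or weighted by library quality), DESeq2 1.42.0, a robust fit, an adjusted p under 0.1, and leaving out each pool, or untreated pool 3 and RUX pool 4.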

Additional observations from a re-analysis of the deposited data

How the results depend on the processing

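With all counted genes kept, edgeR called 14 genes in place of 0, of which 1 was a member, Prss34. Among the others were the neutrophil markers S100a8, S100a9, Ltf, Camp, Ngp, Lcn2, Retnlg, Mmp8 and Mmp9. SEs of these markers were 0.16 to 0.25 without the filter and 0.49 to 0.75 with it. Weighted by library quality, limma-voom called 1 gene, which is no member. Every other alternative called 0 genes, and all alternatives called 0 of the other pathway genes. The median log2 fold change of the tested members, 0.15, ranged from −0.06 to 0.48 when a pool was left out, without RUX pool 4 and without untreated pool 3. Prss34 and Cma1 kept a positive sign in every alternative that tested them, Prss34 between 0.69 and 2.60 and Cma1 between 0.04 and 1.91; the other 6 members changed sign in at least 1 of 15 alternatives, as did 14 of the 29 other named genes. The cause was not tested. No paired analysis was possible because the groups share no pool numbers. Depth limits Cma1, Tpsb2 and Tpsab1.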

Other observations

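Transcripts of mucosal mast cell proteases were counted in a few pools and not in others. Mcpt1 had 6 read pairs in untreated pool 3, 1 in RUX pool 4 and 0 elsewhere, and Mcpt2 had 7 in untreated pool 3, 5 in RUX pool 6 and 0 elsewhere. Cma2, a chymase gene next to Cma1 in name, had 1 read pair in RUX pool 6. None of the 3 passed the low-count filter.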
